A study of Mus musculus with 18 samples.

Results

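Banp, Ints8, Fxr1 and Zfp414 are 4 of the 18349 genes whose expression was measured in whole mouse colon. They were chosen by their values: they are the genes called different between colons of mice given the ZJ316-KO strain (KO) and the ZJ316-COM strain (COM), and their rows were found by NCBI gene ID. The 18 bulk RNA-seq libraries came from male C57BL/6 mice whose own genotype is labelled WT, so that KO, COM and WT below name bacteria and not mice. The KO (n = 4), COM (n = 4) and WT (n = 4) groups first drank 2.5% dextran sulfate sodium (DSS), which damages the lining of the colon, for 7 days, and were then gavaged for 5 weeks with the Lactobacillus plantarum strains ZJ316-KO, ZJ316-COM or ZJ316. The DSS group (n = 3) received the same DSS and then PBS by gavage, and the Control group (n = 3) drank water and had no DSS. DSS is thus common to all groups but Control, and the labels leave the meaning of KO and COM unexplained. The labels number the libraries but tie none to an individual mouse, and a p-value here reflects only how these samples vary, which may be technical. In such bulk tissue, fewer cells of a type and less RNA per cell cannot be told apart.

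The 4 genes act at different steps of gene expression. Banp, also called SMAR1, is a nuclear protein with a BEN domain, a DNA-binding fold. It was first described as a binder of matrix attachment regions and a partner of p53 and of histone deacetylase complexes, and it also binds a short CpG-containing element in promoters when that element is unmethylated, where it activates transcription. Ints8 is a subunit of Integrator, the complex that cleaves small nuclear RNAs and attenuates transcription by RNA polymerase II. Fxr1 is an RNA-binding protein and paralog of Fmr1, the protein lost in fragile X syndrome, and binds AU-rich messages such as that of Tnf. Zfp414 is a zinc finger protein about which little is known.

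The promoter of Zfp414 is shown first, because among the members it is the one found to hold the element to which Banp binds. RefSeq promoters (assembly GRCm38.p6, from 250 bases before to 50 bases after the annotated start) were at hand for Fxr1 and Zfp414. The promoter of Zfp414, chr17:33628842-33629141 on the plus strand, reads as follows, with the element in capitals.
Zfp414: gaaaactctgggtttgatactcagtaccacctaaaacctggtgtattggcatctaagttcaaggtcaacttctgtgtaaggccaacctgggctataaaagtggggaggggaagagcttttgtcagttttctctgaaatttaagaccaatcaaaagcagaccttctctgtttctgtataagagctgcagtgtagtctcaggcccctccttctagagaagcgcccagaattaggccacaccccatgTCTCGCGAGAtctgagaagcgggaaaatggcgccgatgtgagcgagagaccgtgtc
The element TCTCGCGAGA is its own reverse complement. It begins 6 bases before the annotated start of Zfp414 and runs over the first 4 transcribed bases, at chr17:33629086-33629095. The whole element was present in 153 of 32851 RefSeq promoters (0.466%). Its 8-base core CTCGCGAG was present in 302 (0.919%). The promoter of Zfp414 has 48.3% G and C and 8 CpG dinucleotides, whereas that of Fxr1 has 76.3% and 43, and the median promoter has 52.7% G and C. The promoter of Fxr1 lacks the core. Of the other motifs searched on both strands, GGGCGG was in the Fxr1 promoter (and in 35.7% of all) and CCAAT in that of Zfp414 (and in 37.4%). Neither promoter held CCGGAAGT (3.89% of all), TGACGTCA (1.79%) or AAGATGGC (2.75%). These matches describe the letters of the windows and do not show that a protein was bound there.

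Levels are given as FPKM (fragments by transcript length and library size), which the authors deposited without read counts, so that depth is unknown. Differences are of log2(FPKM + 1) ± SE from a limma model of all 5 groups, and understate the change of low genes. Calls were made at an adjusted p (Benjamini-Hochberg) under 0.05 over 13263 genes, those that reached 1 FPKM in 3 or more libraries, and all 4 members passed that filter. The colon markers were high in every library, at a summed 9407 to 11631 FPKM over 10 genes in KO, 9485 to 13267 in COM, 8640 to 9763 in WT, 8004 to 8386 in DSS and 11166 to 24756 in Control, and none was at 0. Some libraries stood apart in genes of other tissues. Pancreatic acinar genes had a mean log2(FPKM + 1) of 8.20 to 10.68 in KO 3, DSS 1 and DSS 3, against 1.02 to 1.28 in the other 15. Distal gut Hox genes were low in KO 2 and Control 3, at 1.45 to 2.61, against 3.04 to 4.56 in the other 16. Squamous epithelium genes were high in KO 3, COM 3, WT 2, WT 4 and DSS 2, at 2.05 to 3.52, against 0.48 to 0.92 in the other 13.

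Banp (NCBI gene ID 53325) lies on the plus strand at chr8:121947972-122029260. Its level was 5.53, 4.52, 4.28 and 4.72 FPKM in the 4 KO libraries. It was 7.78, 10.16, 8.66 and 11.82 FPKM in COM, and 7.53, 8.90, 8.08 and 8.03 FPKM in WT. It was 9.27, 8.48 and 11.48 FPKM in DSS, and 12.18, 13.02 and 13.57 FPKM in Control. The 4 KO libraries were the lowest of the 18 and the 3 Control libraries the highest, while the COM, WT and DSS libraries overlapped. Banp averaged 4.76 ± 0.542 FPKM in KO and 9.61 ± 1.77 FPKM in COM (SD, n = 4 each). It averaged 8.13 ± 0.567 FPKM in WT (SD, n = 4), 9.74 ± 1.56 FPKM in DSS and 12.9 ± 0.700 FPKM in Control (SD, n = 3 each). The KO mean was thus 49.6% of the COM mean, 58.5% of the WT mean, 48.9% of the DSS mean and 36.9% of the Control mean.

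Ints8 (ID 72656), the Integrator subunit, lies on the minus strand at chr4:11199158-11254265. Its level was 8.63, 9.79, 10.86 and 10.08 FPKM in KO, and 13.42, 12.77, 12.53 and 14.28 FPKM in COM. It was 11.04, 12.92, 11.95 and 12.07 FPKM in WT. It was 12.61, 13.25 and 13.16 FPKM in DSS, and 13.36, 13.14 and 12.84 FPKM in Control. Every KO library lay below every other library, though KO 3 at 10.86 FPKM came close to WT 1 at 11.04 FPKM. The other groups overlapped with their neighbours in the order COM, Control, DSS, WT. The KO mean, 9.84 ± 0.925 FPKM, was 74.3% of the COM mean, 13.2 ± 0.783 FPKM (SD, n = 4 each).

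Fxr1 (ID 14359), the RNA-binding protein of the Fmr1 family, lies on the plus strand at chr3:34020058-34069980. Its level was 20.12, 19.53, 21.35 and 22.38 FPKM in KO, and 25.76, 27.49, 25.65 and 26.72 FPKM in COM. It was 24.42, 27.40, 25.75 and 24.82 FPKM in WT. It was 25.55, 24.46 and 27.19 FPKM in DSS, and 24.24, 23.50 and 24.30 FPKM in Control. The KO libraries were the lowest, the Control libraries came next without overlapping either side, and COM, DSS and WT overlapped above them. The KO mean, 20.8 ± 1.27 FPKM, was 78.9% of the COM mean, 26.4 ± 0.868 FPKM (SD, n = 4 each).

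Zfp414 (ID 328801), the zinc finger gene, lies on the plus strand at chr17:33629092-33631716, and it is the one member that was higher in KO. Its level was 14.14, 14.25, 13.43 and 13.79 FPKM in KO, and 8.82, 9.41, 10.07 and 11.48 FPKM in COM. It was 11.53, 11.02, 11.25 and 10.95 FPKM in WT. It was 12.26, 12.11 and 11.70 FPKM in DSS, and 10.18, 11.37 and 12.01 FPKM in Control. The KO libraries were the highest of the 18. The DSS mean came next, and the DSS libraries did not overlap with WT but did with Control, where Control 3 at 12.01 FPKM lay above DSS 3 at 11.70 FPKM. WT, Control and COM overlapped. The KO mean, 13.9 ± 0.371 FPKM, was 140% of the COM mean, 9.95 ± 1.14 FPKM (SD, n = 4 each).

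**Figure D1:**
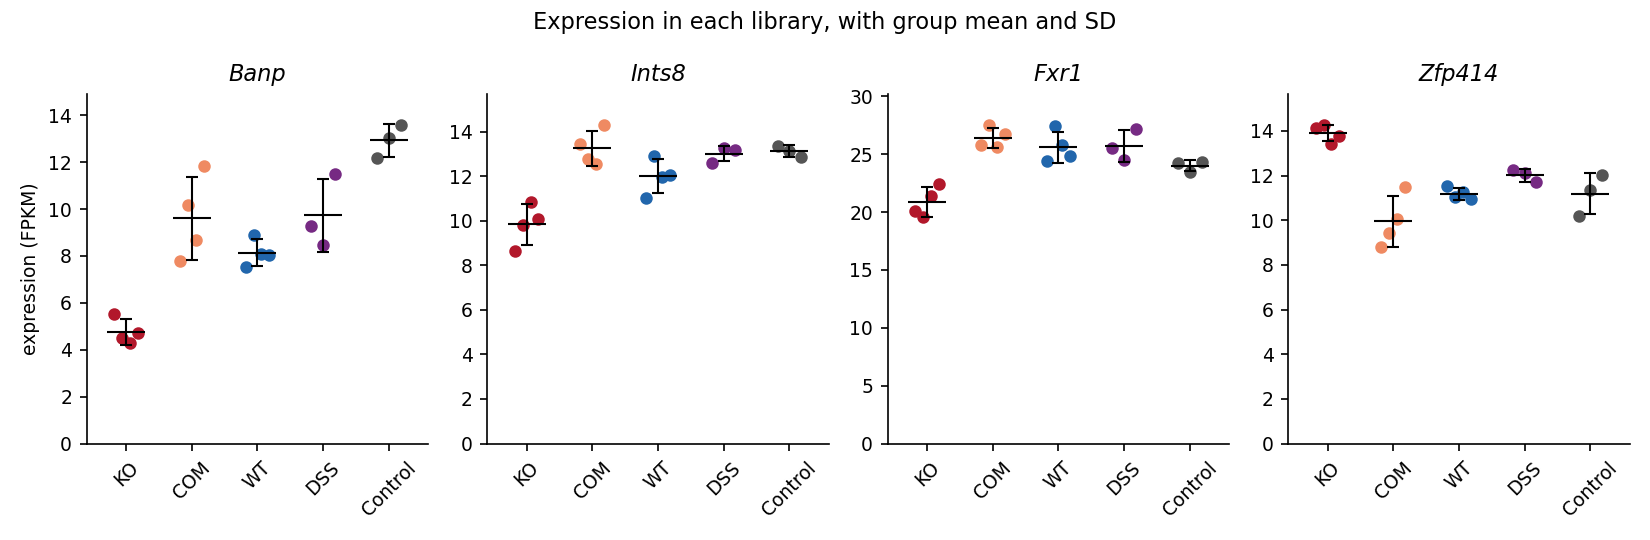
Expression (FPKM, linear axis from 0) of the 4 genes in each of the 18 libraries, with groups KO, COM, WT, DSS and Control from left to right; points are libraries, horizontal bars the group mean and vertical bars the SD. The KO points lie below all others for Banp, Ints8 and Fxr1 and above all others for Zfp414, and the Control points are the highest for Banp.

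In KO against COM, which chose the members, the log2 difference was -0.87 ± 0.11 for Banp, -0.40 ± 0.06 for Ints8, -0.33 ± 0.05 for Fxr1 and 0.45 ± 0.07 for Zfp414. These 4 were all the genes called there (0.0302% of those tested), so the count carries no information of its own. Every list of other genes below thus had no call there from the outset, which says nothing about the list. The unadjusted p was under 0.05 for 1431 of the 13263 tested genes, and in KO against WT for 2672. Counts at that threshold in the lists below are to be read beside these. At the edge of the choice, Fxr1 and Ints8 had an adjusted p of 0.0464 in limma. The next gene outside, Fnip1, which encodes a folliculin-interacting protein, had 5.93 ± 0.572 FPKM in KO and 7.85 ± 0.116 FPKM in COM, a difference of -0.36 ± 0.06 and an adjusted p of 0.0842. Membership depended on single libraries. No gene was called without KO 2, KO 4 or COM 2. Banp alone was called without KO 1, COM 1 or COM 3, Banp and Ints8 without KO 3, and Banp and Zfp414 without COM 4. The size of the differences moved less: over 18 alternatives it stayed between -0.99 and -0.77 for Banp, -0.47 and -0.34 for Ints8, -0.36 and -0.30 for Fxr1, and 0.40 and 0.52 for Zfp414.

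The order of libraries seen in the members was not particular to them. Of the tested genes, 23 (0.173%) had all 4 KO libraries above the other 14, and 32 (0.241%) had them all below. The same count, in both directions together, was 55 for KO, 32 for COM and 60 for WT. Among the 55 genes, Banp had the widest gap between the KO libraries and the nearest other library, 0.39 on the log2 scale. The next was Trmt1l, which encodes a tRNA methyltransferase 1-like protein, with 0.13, and then Zfp414 with 0.12. Fxr1 was in place 8 with 0.07 and Ints8 in place 33 with 0.02.

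**Figure D2:**
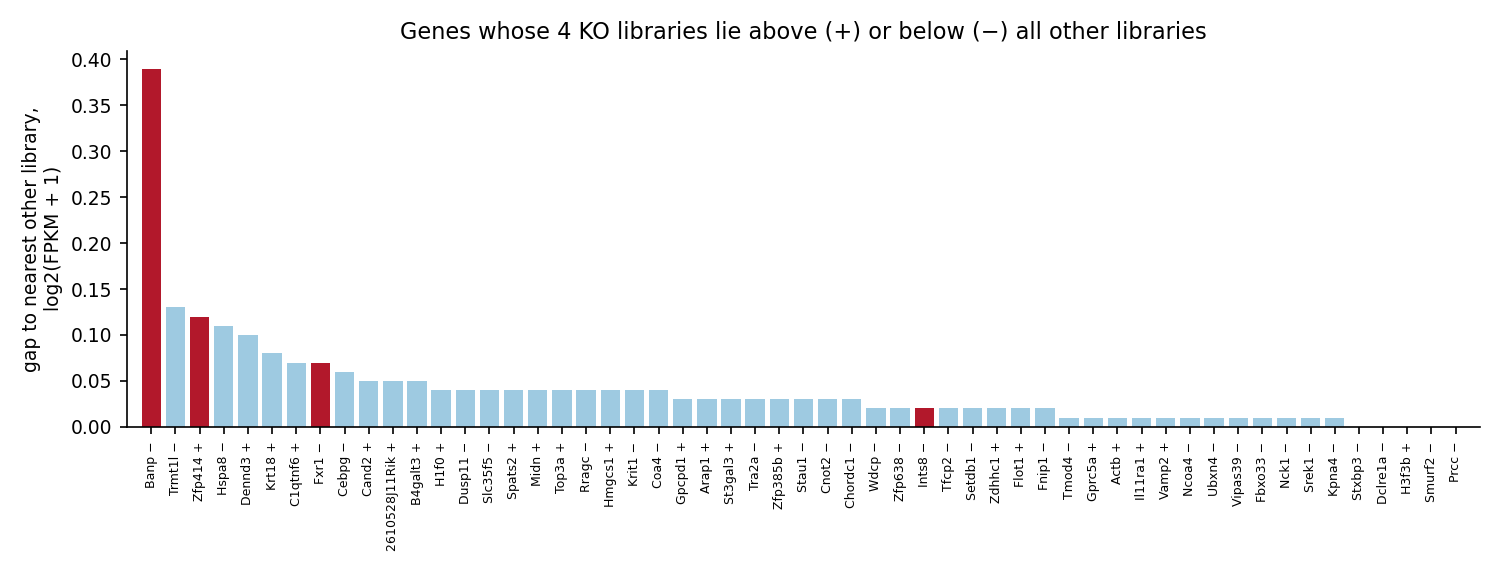
Gap on the log2(FPKM + 1) scale (linear axis from 0) between the 4 KO libraries and the nearest of the other 14, for the 55 genes whose KO libraries lie all above (+) or all below (−) the rest; red bars are Banp, Zfp414, Fxr1 and Ints8 and blue bars the other genes. The bar of Banp reaches 0.39 and that of the next gene, Trmt1l, 0.13.

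Against the other groups the KO libraries differed in the same direction for each member, as a description of values that share the KO libraries with the choice. Banp differed by -0.67 ± 0.11 in KO against WT, by -0.89 ± 0.12 against DSS and by -1.28 ± 0.12 against Control. For Ints8 the differences were -0.26 ± 0.06 against WT, -0.37 ± 0.07 against DSS and -0.38 ± 0.07 against Control. For Fxr1 they were -0.28 ± 0.05, -0.29 ± 0.06 and -0.20 ± 0.06 in the same order. For Zfp414 they were 0.29 ± 0.07, 0.19 ± 0.07 and 0.29 ± 0.07. The COM libraries, also used by the choice, are described beside them. In COM against WT the differences were 0.20 ± 0.11 for Banp, 0.13 ± 0.06 for Ints8, 0.04 ± 0.05 for Fxr1 and -0.16 ± 0.07 for Zfp414. In COM against DSS they were -0.02 ± 0.12 for Banp, 0.02 ± 0.07 for Ints8, 0.04 ± 0.06 for Fxr1 and -0.26 ± 0.07 for Zfp414, whose COM and DSS libraries did not overlap. In COM against Control they were -0.41 ± 0.12 for Banp, 0.01 ± 0.07 for Ints8, 0.13 ± 0.06 for Fxr1 and -0.16 ± 0.07 for Zfp414. The COM libraries, like those of KO, thus lay below Control for Banp.

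The differences were about as large without the libraries that stood apart. Without the acinar-rich libraries, KO against COM was -0.83 ± 0.11 for Banp, -0.44 ± 0.07 for Ints8, -0.34 ± 0.06 for Fxr1 and 0.47 ± 0.08 for Zfp414. Without the low-Hox libraries the values were -0.85 ± 0.12, -0.40 ± 0.07, -0.30 ± 0.05 and 0.44 ± 0.07 in the same order, and without the squamous-rich ones -0.87 ± 0.13, -0.47 ± 0.07, -0.35 ± 0.06 and 0.47 ± 0.09. With these libraries left out no gene was called in KO against COM, while 1422, 1199 and 981 genes had an unadjusted p under 0.05. The levels of all 12 marker lists overlapped between KO and COM. In KO against WT, 2 of the 12 did not: the colon epithelium list was higher, at a mean log2(FPKM + 1) of 9.22 to 9.65 in KO and 8.89 to 9.15 in WT, and the macrophage list lower, at 2.79 to 3.45 in KO and 3.62 to 3.85 in WT. Their part in the differences of the members between KO and WT was not tested.

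The differences between WT, DSS and Control use neither the KO nor the COM libraries and so could be tested. Their SE and p-values come from the model of all 5 groups, so the spread of the KO and COM libraries, which also entered the choice, is part of them. Banp fell in WT against Control, with a difference of -0.61 ± 0.12 in limma (adjusted p = 0.00301), and the WT mean was 62.9% of the Control mean. All 4 WT libraries lay below all 3 Control libraries. For Fxr1, not called there, the WT and Control libraries did not overlap either, with WT above. The call of Banp was made in all 17 alternatives, where the difference ranged from -0.66 to -0.58. With only these groups in the fit its adjusted p was 0.0134 in limma. Banp was the 1 of 4 members called there, beside a background of 23.1% of tested genes. The others had differences of -0.12 ± 0.07 for Ints8 (adjusted p = 0.214), 0.09 ± 0.06 for Fxr1 (adjusted p = 0.273) and 0.00 ± 0.07 for Zfp414 (adjusted p = 0.986). A lower Banp than in Control was thus measured without the KO strain.

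In DSS against Control, Banp differed by -0.38 ± 0.13, which missed the threshold in limma (adjusted p = 0.0515), although the 3 DSS libraries lay below the 3 Control libraries. Those of Fxr1 did not overlap either, with DSS above Control. Banp was called without Control 1 (adjusted p = 0.0435) or DSS 3 (adjusted p = 0.0303). It was further from the threshold without Control 2 (adjusted p = 0.0961), Control 3 (0.133), DSS 1 (0.129) or DSS 2 (0.183). The adjusted p was 0.170 with only these groups in the fit and 0.272 without the squamous-rich libraries. None of the 4 members was called there (background 16.9%). Of them 1, Banp, had an unadjusted p under 0.05, as did 4370 of the 13263 tested genes. The other differences were -0.01 ± 0.07 for Ints8 (adjusted p = 0.932), 0.09 ± 0.06 for Fxr1 (adjusted p = 0.294) and 0.10 ± 0.08 for Zfp414 (adjusted p = 0.393). Of the 12 marker lists, 7 did not overlap between DSS and Control and 7 between WT and Control. The macrophage list was higher, at 3.62 to 3.85 in WT and 3.47 to 3.86 in DSS, against 1.98 to 3.03 in Control. The smooth muscle list was lower, at 6.44 to 6.75 in WT and 6.45 to 6.80 in DSS, against 6.91 to 7.12 in Control. The part of these shifts in the level of Banp was not tested.

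In WT against DSS no member was called, and limma called no gene at all (background 0%), while 633 genes and 0 of the 4 members had an unadjusted p under 0.05. Banp differed by -0.23 ± 0.12, Ints8 by -0.11 ± 0.07, Fxr1 by -0.01 ± 0.06 and Zfp414 by -0.10 ± 0.07. The WT and DSS libraries overlapped for Banp, Ints8 and Fxr1 but not for Zfp414. The share of all tested genes without overlap is not given here for the comparisons of WT, DSS and Control, so these orders of libraries are descriptions.

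**Figure D3:**
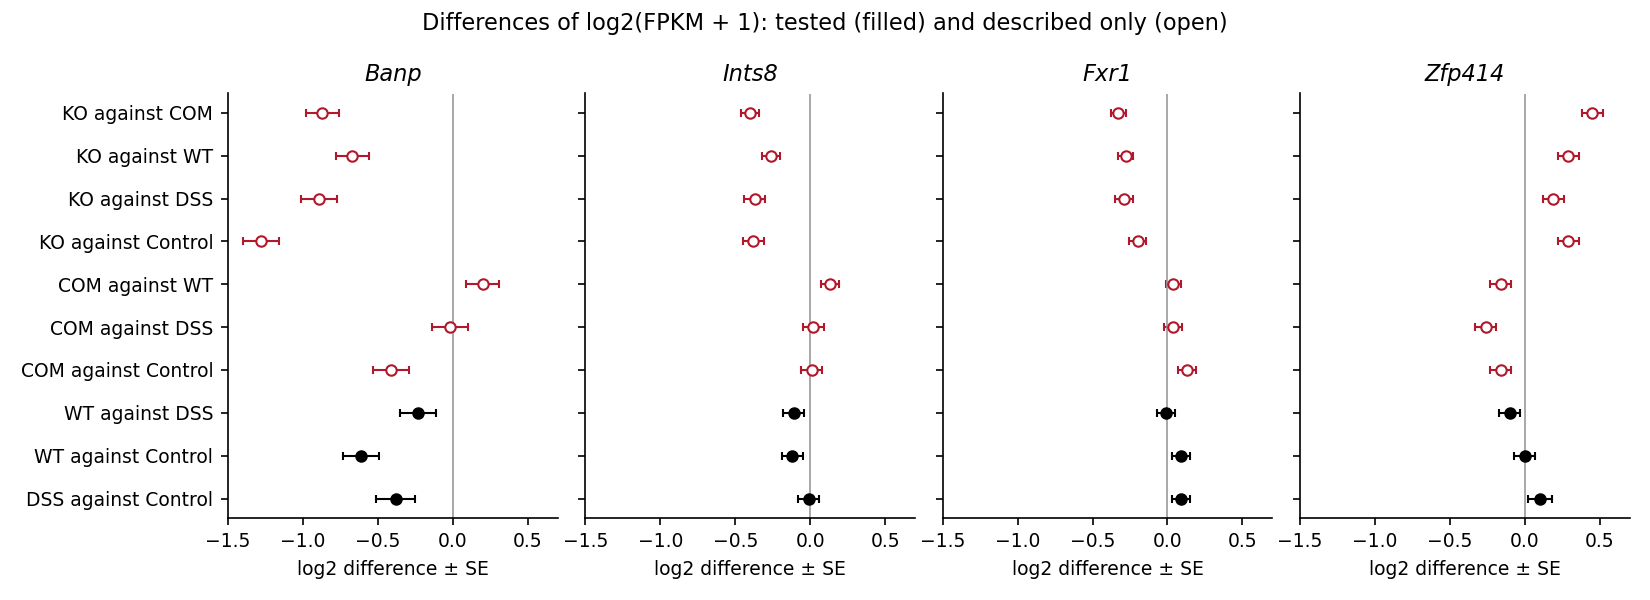
Difference of log2(FPKM + 1) ± SE for each gene in 10 comparisons, first-named group minus second; filled points were tested and open red points share the KO or COM libraries with the choice of the genes and are descriptions. Of the filled points, Banp in WT against Control (-0.61) is the one that was called, and the 4 KO comparisons lie on the same side of 0 for each gene.

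The likeness of the 4 genes to each other was smaller without the KO libraries. Over the 18 libraries, which share their normalization, Pearson's r of log2(FPKM + 1) was 0.81 between Banp and Ints8, 0.82 between Ints8 and Fxr1, 0.69 between Banp and Fxr1, and -0.75 between Fxr1 and Zfp414. Over the 14 libraries without KO these were 0.57, 0.22, -0.13 and -0.26 in the same order. For Banp and Zfp414, r was -0.57 over the 18 libraries, 0.51 after group means were removed and 0.23 without KO. These values are descriptions, since the KO libraries were used in choosing the genes.

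The genes whose pattern over the 18 libraries was most like each member, among 9097 genes of at least 5 FPKM, were found by the same r, which includes the differences between group means and the KO libraries used in the choice. For Banp they were Prcc (0.83), Ints8 (0.81), Nlrp6 (0.81), Trmt1l (0.80) and Ndufb4c (0.80). With group means removed, r was 0.01 for Ints8 and for Trmt1l, 0.22 for Nlrp6, 0.27 for Ndufb4c and 0.50 for Prcc. Nlrp6, an innate immune sensor of the colonic epithelium, averaged 59.4 ± 7.18 FPKM in KO and 75.8 ± 7.25 FPKM in COM (SD, n = 4 each), and 97.4 FPKM in Control. Its mean, like that of Banp, was thus lowest in KO and highest in Control, an order that the search by r itself favours. Unlike those of Banp, its KO libraries did not all lie below the rest. For Ints8 they were Trmt1l (0.90), Krit1 (0.87), Zfp638 (0.84), Birc2 (0.84) and Ankrd12 (0.83), or 0.62 to 0.72 with group means removed. Trmt1l averaged 18.1 ± 1.86 FPKM in KO and 23.0 ± 0.792 FPKM in COM (SD, n = 4 each). For Fxr1 they were Kpna4 (0.92), Ppil4 (0.88), Arih1 (0.88), Trappc13 (0.87) and Uhrf2 (0.87), or 0.44 to 0.85 with group means removed. Kpna4, an importin that carries proteins into the nucleus, averaged 22.7 ± 1.56 FPKM in KO and 27.9 ± 1.60 FPKM in COM (SD, n = 4 each). For Zfp414 they were Gpaa1 (0.77), St3gal3 (0.77), Arap1 (0.76), Ppib (0.75) and Ly6g6c (0.75), or 0.29 to 0.55 with group means removed. St3gal3, a sialyltransferase, averaged 48.5 ± 16.8 FPKM in KO and 25.1 ± 6.90 FPKM in COM (SD, n = 4 each).

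No tested neighbour on the chromosome was called in KO against COM, where only the members were called. Ccne2, the cyclin E2 gene, overlaps Ints8 on the other strand, and the gene models share 609 exonic bases, 8.15% of those of Ints8. Ccne2 differed by -0.15 ± 0.20 in KO against COM (adjusted p = 0.835 in limma). Dnajc19, a mitochondrial import gene, overlaps Fxr1 on the other strand over 178 exonic bases, 2.72% of those of Fxr1, and differed by -0.03 ± 0.09 (adjusted p = 0.922). Whether fragments were assigned by strand is not given in the sources used here, so reads from the shared bases cannot be told apart. Trp53inp1, a p53-induced gene 24779 bases from Ints8, had 19.7 ± 4.14 FPKM in KO and 25.2 ± 3.79 FPKM in COM, a difference of -0.36 ± 0.13 (adjusted p = 0.349). On its other side, Dpy19l4 differed by -0.05 ± 0.07. Myo1f, 21328 bases before Zfp414, differed by -0.11 ± 0.13. Car5a and Zfp469 beside Banp, Ccdc39 and Sox2 beside Fxr1, and Pram1 beside Zfp414 averaged below 1 FPKM in KO and in COM and were not tested.

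Ints8, chosen on KO against COM, had the lowest difference there among the Integrator genes. Of 18 other Integrator genes tested, limma called none in KO against COM. Of the 18, 2 had an unadjusted p under 0.05, beside 1431 of all 13263 tested genes. The median difference of the 18 was 0.01, against -0.01 over all tested genes, and 8 of 18 lay below 0 (7 with quantile normalization and 11 as TPM). Ints6 was lowest at -0.32 ± 0.13, with 7.19 ± 1.85 FPKM in KO and 9.02 ± 0.526 FPKM in COM. Ints9, in the cleavage module, followed at -0.18 ± 0.07. In KO against WT, 16 of the 18 lay below 0 with a median of -0.14, against -0.02 over all tested genes. There 1 was called, Ints10, at -0.37 ± 0.07 (adjusted p = 0.0314), with 10.8 ± 0.620 FPKM in KO and 14.2 ± 0.942 FPKM in WT, beside a background of 0.829% of tested genes. That call was lost when any of 6 of the 8 libraries was left out (all but KO 1 and WT 4), with an adjusted p of up to 0.134.

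Integrator genes other than Ints8 were called in comparisons without KO. In WT against Control 6 of 18 rose and none fell, beside the background of 23.1% called in either direction. Ints10 rose by 0.52 and the single-stranded DNA-binding subunit Nabp1 also by 0.52. Ints7 rose by 0.40 and Ints4 by 0.34. Ints10, Nabp1, Ints4 and Ints3 were called whichever library was left out, Ints7 was lost without Control 3 (adjusted p = 0.0892), and Ints14 was lost without Control 3, WT 1, WT 2 or WT 3 and with quantile normalization (adjusted p = 0.0602). In DSS against Control 3 rose, Ints10 by 0.34, Ints3 by 0.33 and Ints4 by 0.27, and none fell, beside a background of 16.9%. There Ints10 was called whichever library was left out, Ints3 was lost without DSS 3 (adjusted p = 0.0699), and Ints4 was lost without Control 2, Control 3, DSS 1 or DSS 3 and with quantile normalization (adjusted p = 0.0857). In WT against DSS none was called and 1 had an unadjusted p under 0.05.

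Fxr1 likewise had the lowest difference among its relatives and partners in the comparison on which it was chosen. Of 12 relatives and partners, among them Fmr1, Fxr2, the Cyfip proteins and the stress granule proteins G3bp1 and G3bp2, limma called none, and 3 had an unadjusted p under 0.05. Of these 12, 10 lay below 0, with a median of -0.08. The paralog Fmr1 had 16.6 ± 1.44 FPKM in KO and 19.7 ± 0.404 FPKM in COM (SD, n = 4 each), a difference of -0.24 ± 0.08 (adjusted p = 0.325). The other paralog, Fxr2, had 19.0 ± 1.64 FPKM in KO and 20.1 ± 0.741 FPKM in COM. In KO against WT 1 of the 12 was called (background 0.829%): Ago2, the Argonaute protein that carries microRNAs, was lower by 0.29 (adjusted p = 0.0480 in limma). That call was lost without any of 7 of the 8 libraries, all but KO 1, and as TPM (adjusted p = 0.0544). Ago2 averaged 9.24 ± 0.693 FPKM in KO, 10.2 ± 0.291 FPKM in COM, 11.5 ± 0.501 FPKM in WT, 11.4 ± 0.855 FPKM in DSS and 7.29 ± 0.653 FPKM in Control. Between WT and Control 4 of 12 rose in WT and none fell (background 23.1%): Ago2 by 0.59, Cyfip1 by 0.29, Ubap2l by 0.27 and G3bp1 by 0.25. Of these, G3bp1 was lost without Control 2, Control 3, WT 1, WT 2 or WT 3, with an adjusted p of up to 0.161. In DSS against Control 1 of 12 was called (background 16.9%), Ago2, which rose by 0.58.

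**Figure D4:**
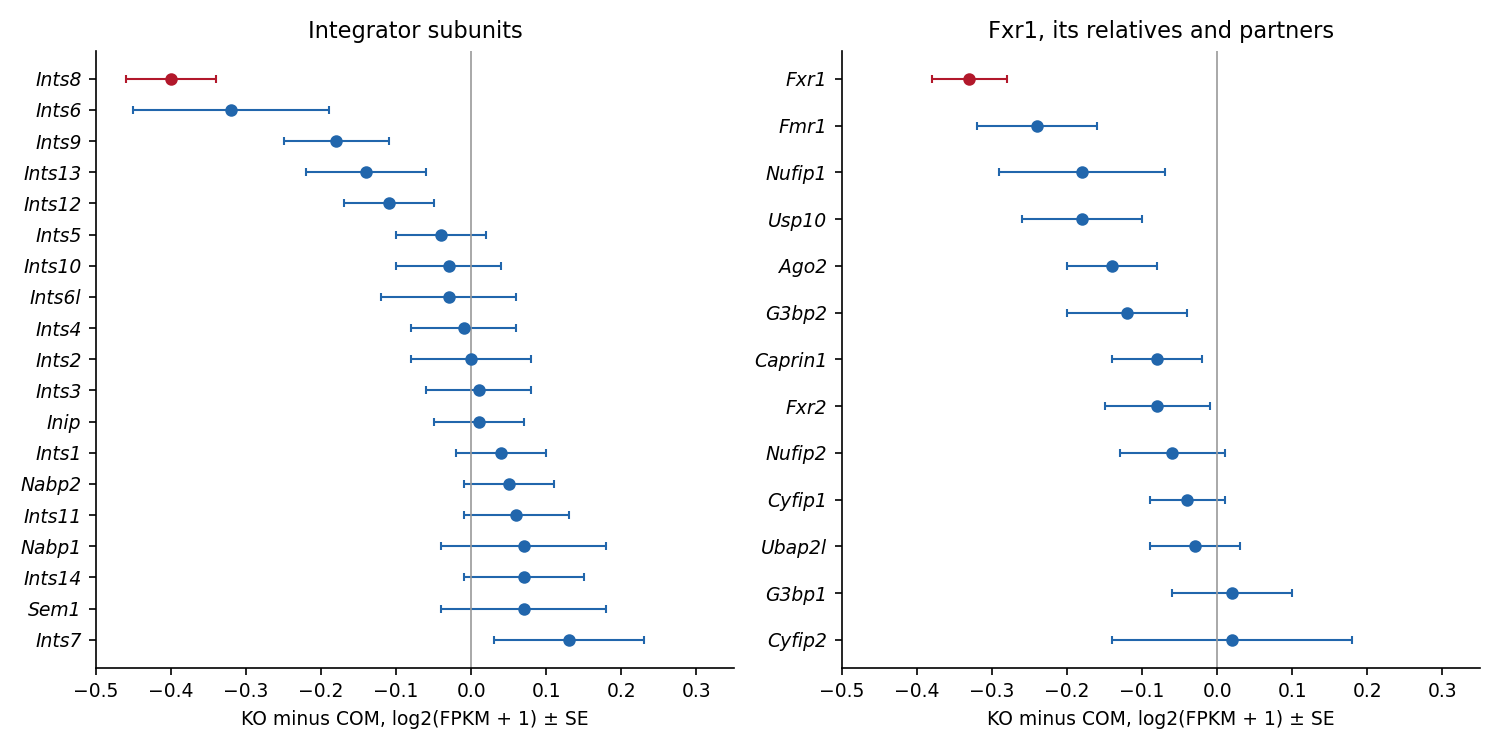
Difference of log2(FPKM + 1) in KO minus COM ± SE for Ints8 with 18 other Integrator genes (left) and for Fxr1 with 12 relatives and partners (right); red points are Ints8 and Fxr1, which were chosen on this comparison, and blue points the others. The blue points run from -0.32 (Ints6) to 0.13 (Ints7) on the left and from -0.24 (Fmr1) to 0.02 (Cyfip2) on the right, and none of them was called.

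Messages with AU-rich elements that Fxr proteins can bind were not called in KO against COM, where 0 of 6 tested had an unadjusted p under 0.05. Tnf had 2.66 ± 0.502 FPKM in KO and 3.72 ± 1.91 FPKM in COM (SD, n = 4 each), a difference of -0.29 ± 0.24 (adjusted p = 0.723). Of the 6, 3 rose in WT against Control, the cytokine genes Il1b by 1.71 and Tnf by 0.81 and the chemokine gene Cxcl1 by 1.46, beside the background of 23.1% called in either direction. The macrophage markers rose there too, 11 of 11 tested, with a median of 1.33, and their part in these cytokine levels was not tested. Tnf was lost without Control 3, WT 1, WT 2 or WT 3 and with quantile normalization (adjusted p = 0.0637), and Cxcl1 without Control 3 or WT 2. In DSS against Control 1 of the 6 was called, Il1b, which rose by 1.73 (background 16.9%), and 10 of the 11 macrophage markers rose.

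Genes linked to Banp by protein family or by partnership were not called in KO against COM either, where only the members were called. Of 12 tested genes of BEN domain and matrix-attachment proteins, 2 had an unadjusted p under 0.05. Bend3, a BEN domain repressor, had 2.70 ± 0.273 FPKM in KO and 1.97 ± 0.0479 FPKM in COM, a difference of 0.31 ± 0.08 (adjusted p = 0.184). Safb had 23.2 ± 3.46 FPKM in KO and 27.5 ± 1.29 FPKM in COM. Bend3 rose in WT against Control, by 0.29. This call was lost without Control 3 or WT 2, and with quantile normalization (0.14, adjusted p = 0.260).

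Of 15 p53 targets and partners of Banp, limma called none in KO against COM, and 2 had an unadjusted p under 0.05. Their median was -0.05. Trp53 had 35.5 ± 3.48 FPKM in KO and 37.7 ± 4.36 FPKM in COM, and the corepressor Sin3a had 14.9 ± 1.56 FPKM in KO and 18.4 ± 0.690 FPKM in COM, a difference of -0.28 ± 0.08 (adjusted p = 0.212). In WT against Control, the p53 target Ccng1 rose by 0.19 and the growth-arrest gene Gadd45a fell by 0.79 (background 23.1%). In DSS against Control Gadd45a fell by 0.62 (background 16.9%). Ccng1 was lost without any 1 of the 7 libraries, and Gadd45a in DSS against Control without any of 5 of the 6, all but Control 1, and as TPM (adjusted p = 0.0537).

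Other genes with the Banp element in a promoter were set beside Zfp414. Of 212 other tested genes with the core CTCGCGAG in a promoter, limma called none in KO against COM. Of the 212, 30 had an unadjusted p under 0.05, beside 1431 of all 13263 tested genes. The differences of the 212 had a median of -0.02 and ran from -0.15 to 0.15 between the first and the last decile. Over all 10594 tested genes with a RefSeq promoter the median was -0.01 and the deciles -0.20 and 0.18. Of the 212 genes, 120 (56.6%) lay below 0, against 51.8% of the 10594, and the number was 111 with quantile normalization and 138 as TPM. In KO against WT, 142 of the 212 (67.0%) lay below 0 (131 with quantile normalization and 155 as TPM), against 55.1%, with medians of -0.05 and -0.02, and 2 fell and 0 rose (5 were called with quantile normalization). These 2 are 0.943% of the genes with the core, against 0.472% of all with a promoter. In WT against Control, where Banp fell, 27 of the 212 genes rose (12.7%) and 14 fell (6.60%), against 14.3% and 8.33% of all with a promoter.

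Among the 212 genes, 0 had all 4 KO libraries above the other 14 and 1 had them all below, beside 23 (0.173%) and 32 (0.241%) of the 13263 tested genes. The gene below was Ncoa4, a receptor that delivers ferritin for degradation, named here after its values were seen. Its element, on the plus strand at chr14:32159844-32159883 with flanks, is set beside that of Zfp414 at chr17:33629071-33629110, because the genes differ in opposite directions in KO and both hold the whole element, in capitals.
Zfp414: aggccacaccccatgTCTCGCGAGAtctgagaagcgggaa
Ncoa4: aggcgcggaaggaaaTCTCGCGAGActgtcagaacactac
In Ncoa4 the element lies from 28 to 19 bases before the annotated start. Ncoa4 was at 50.47, 40.73, 53.04 and 49.56 FPKM in KO, and at 59.81, 58.46, 57.95 and 62.20 FPKM in COM. KO 3 at 53.04 FPKM lay just below DSS 1 at 53.39 FPKM, a gap of 0.01 on the log2 scale, in place 44 among the genes with KO apart. It averaged 48.4 ± 5.35 FPKM in KO and 59.6 ± 1.90 FPKM in COM, a difference of -0.30 ± 0.07 that was not called (adjusted p = 0.159 in limma).

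**Figure D5:**
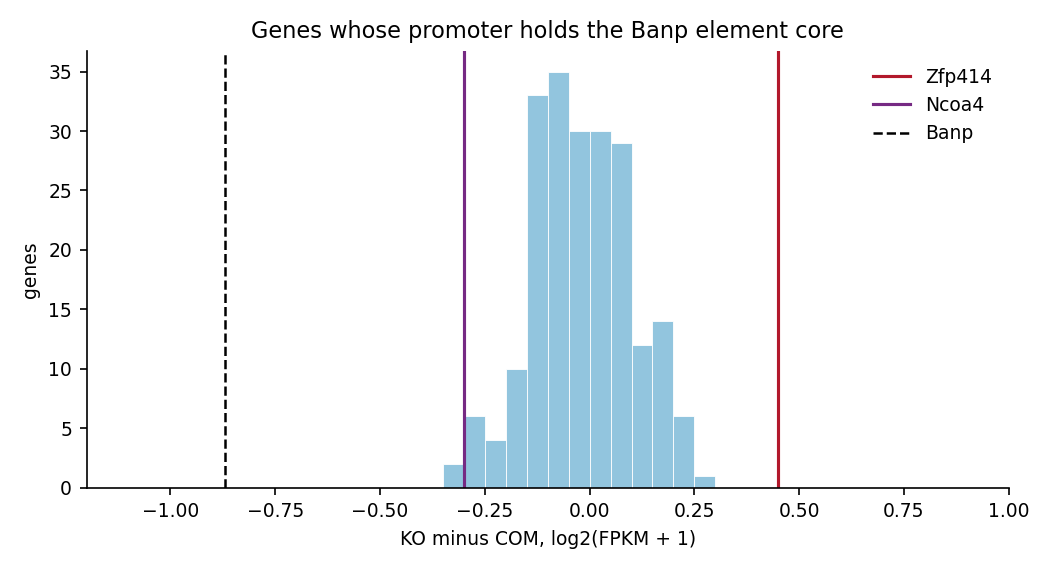
Number of genes (linear axis from 0) by difference of log2(FPKM + 1) in KO minus COM, for the 212 tested genes with the 8-base core of the Banp element in a RefSeq promoter, Zfp414 left out; vertical lines mark Zfp414 (0.45), Ncoa4 (-0.30) and, dashed, Banp itself (-0.87). The 212 genes, none of them called, lie closer to 0 than Zfp414 and Banp, which were chosen on this comparison.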

How the data were processed

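Whole-colon RNA was sequenced on the DNBSEQ platform (per the labels' protocols), and FPKM values of 18349 genes in 18 libraries were deposited by the authors as 1 table; the submitters' processing notes name the build mm10. The sources used here do not name the aligner, the quantifier, the annotation or the strandedness. The table holds no read counts, so depth is unknown. Library totals were 517933 to 558590 FPKM, 16446 to 16859 genes were above 0, and libraries were grouped by title. At most 2.65% of non-zero values were equal between 2 libraries, so none was taken for a copy.

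The members and gene lists were chosen with earlier results of these data known. Gene IDs were matched to RefSeq symbols (GRCm38.p6; 18230 matched and 119 did not), which gave coordinates and promoters, and exon overlaps came from GENCODE M21 gene models. Values were taken as log2(FPKM + 1). The 13263 genes that reached 1 FPKM in 3 or more libraries entered 1 limma 3.58.1 model (R 4.3.3) of 5 groups, with a mean-variance trend and two-sided tests adjusted by the Benjamini-Hochberg method within a comparison, which was tested on simulated data. Comparisons with KO or COM, which chose the members, were given for them as descriptions. The calls and adjusted p of the members in KO against COM are printed only to show how the choice was made and how it depended on the fit.

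Named genes are the members, for each the 5 genes with the highest Pearson r, their neighbours, and up to 4 genes of a list, called ones first. Some genes that this rule takes are left out of the text and not reported here. Other genes are marked where they were named after their values were seen. Alternatives were TPM in place of FPKM, quantile normalization, a smaller pseudocount (0.1), all 18231 genes above 0 or the 9854 that reached 5 FPKM, a fit of the compared groups alone, a replicate block, single libraries left out, and the libraries rich in acinar or squamous genes or low in Hox genes left out together.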

Additional observations from a re-analysis of the deposited data

How the results depend on the processing

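The differences of the members in KO against COM moved by less than 1 SD between replicates in all 72 alternative values, and the direction of Banp in WT against Control held in all 17 of its alternatives (adjusted p in limma at most 0.0345). The counts of calls depended more on the processing. In DSS against Control, 2243 genes were called in all; with only these groups in the fit the count was 0 (2643 at an unadjusted p under 0.05), without the acinar-rich libraries 426, without the squamous-rich ones 309, and 1266 to 3662 with single libraries left out. In WT against Control, 3058 became 1016 with only these groups, 751 without the squamous-rich libraries and 1873 to 4624 with single libraries left out. In WT against DSS, 0 became 27 without the squamous-rich libraries, where the acinar-rich DSS 1 and DSS 3 were again the DSS libraries left. None of the 27 was higher in WT. The count stayed 0 to 0 with single libraries left out. In KO against COM, 4 became 2 with quantile normalization and 0 with only these groups (1491 at an unadjusted p under 0.05), without the acinar-rich (1422), low-Hox (1199) or squamous-rich libraries (981), and 0 to 2 with single libraries left out; without a filter Ints8 was not among the 4. Of the members, 0 to 1 were called in DSS against Control with single libraries left out and 1 with quantile normalization, Banp in each case (-0.46, adjusted p = 0.0268); in WT against Control it was 1 to 1 and in WT against DSS 0 to 0. The cause of these shifts was not tested, beyond fewer libraries in the fit.

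Differences near 0 changed sign, none of them called: Ints8 in DSS against Control was 0.02 as TPM and 0.01 without the acinar-rich libraries (-0.03 to 0.01 with single libraries left out), Fxr1 in WT against DSS 0.01 and 0.06 in the same settings (-0.04 to 0.03), and Zfp414 in WT against Control -0.06 with quantile normalization and -0.01 with the replicate block (-0.06 to 0.05). Banp in KO against DSS was -0.68 ± 0.17 without the acinar-rich libraries. In that setting DSS 2 was the only DSS library left, also for the values of Ints8 and Fxr1 above. Same-numbered libraries did not deviate together in every pair (r from -0.232 to 0.253 in KO against COM), so the numbers are not taken as a pairing. With the replicate block, KO against COM had 0 calls (1292 at an unadjusted p under 0.05), DSS against Control 1783, WT against Control 2443 and WT against DSS 0, and Banp in WT against Control was -0.64 (adjusted p = 0.00747). The share of calls that were higher was 68.6% in DSS against Control (46.4% with quantile normalization, 78.2% as TPM) and 63.8% in WT against Control (48.8% and 76.1%), where TPM put the median of all genes at 0.10. Without read counts, the precision that depth gives is unknown.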

Other observations

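Genes that respond to time of day or to handling are given as values. Of 15 tested clock genes and outputs, limma called none in KO against COM. An unadjusted p under 0.05 was found for 5 of them, beside 1431 of the 13263 tested genes. The median difference of the 15 was -0.34, against -0.01 over all tested genes. Tef, a clock output factor, had 13.5 ± 2.51 FPKM in KO and 19.3 ± 1.90 FPKM in COM (SD, n = 4 each), a difference of -0.50 ± 0.22. In KO against WT 1 of the 15 was called (background 0.829%): Dbp, another output factor, rose by 1.65 (adjusted p = 0.0256 in limma). That call was lost without any of 6 of the 8 libraries, all but KO 1 and WT 4. Dbp had 14.4 ± 4.03 FPKM in KO and 4.17 ± 2.44 FPKM in WT (SD, n = 4 each). Its mean was higher still in COM, at 19.6 ± 3.98 FPKM (SD, n = 4). In WT against Control, where Banp fell, 3 of the 15 rose and 2 fell (background 23.1%). The repressor Nr1d1 rose by 2.08 (adjusted p = 0.00102 in limma), with 47.1 ± 7.34 FPKM in WT and 11.7 ± 6.35 FPKM in Control (SD, n = 4 and 3). Cry1, another repressor, fell by 1.15 (adjusted p = 0.00118 in limma). Of the 5 calls, 1, Cry2, was lost without Control 2, WT 2 or WT 3. The time of death is not among the labels, and its part in the levels of Banp, Ints8, Fxr1 and Zfp414 was not tested.

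Hspa8, the constitutive Hsc70 chaperone, also had its 4 KO libraries below the other 14. It averaged 1171 ± 40.2 FPKM in KO and 1464 ± 140 FPKM in COM (SD, n = 4 each), a difference of -0.32 ± 0.11 that was not called (adjusted p = 0.308 in limma). In KO against WT it fell by 0.55 (adjusted p = 0.0384), a call lost without WT 2, WT 3, KO 2, KO 3 or KO 4. Of 11 heat shock and cold-inducible genes tested, it was the 1 called there (background 0.829%). The list did not fall with it: 5 of 11 lay below 0 and 6 above, with a median of 0.02, and Hspa1a was highest at 0.50. Of 9 immediate early genes none was called in KO against COM or in KO against WT. In each, 2 of the 9 had an unadjusted p under 0.05, beside 1431 and 2672 of the 13263 tested genes. With quantile normalization 1 was called in KO against WT. In that comparison 8 of 9 lay above 0, with a median of 0.27, against -0.02 over all tested genes. Nr4a1 had 14.6 ± 6.98 FPKM in KO, against 8.37 ± 2.86 FPKM in COM and 5.76 ± 0.771 FPKM in WT (SD, n = 4 each). Of 296 genes named as zinc finger proteins, other than Zfp414, limma called none in KO against COM, and their median difference was -0.05. Of the 296, 38 had an unadjusted p under 0.05, beside 1431 of the 13263 tested genes.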
